A study of Mus musculus with 18 samples.

Results

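Spleen monocytes of Dectin-1 knockout mice were compared with those of mice labelled FcgRIIb knockout, both after PBS, the salt buffer that served as control for intravenous immunoglobulin (IVIg). The comparison was chosen by the genotype and treatment labels and rests on 6 of the 18 libraries of the series, 3 per genotype. RNA was taken from sorted monocytes on day 3, and the design text gives 3 independent mice per group. Beside these 6 libraries stand 3 PBS libraries of wild-type C57BL/6 mice, and 3 IVIg libraries of each knockout, which came from other mice. The labels do not state the knockouts' strain background, the alleles, or the age and sex of the mice, and each knockout is known only by its genotype label. The titles carry a second code whose meaning is not given. Replicates 2 and 3 of Dectin-1 knockout PBS share a code, as do replicates 1 and 2 of FcgRIIb knockout PBS.

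Dectin-1, encoded by Clec7a, is a C-type lectin receptor of myeloid cells that binds fungal beta-glucans and signals through Syk and the adapter CARD9. FcgRIIb, encoded by Fcgr2b, is the inhibitory receptor for IgG; it counters the activating Fc gamma receptors of monocytes, and in B cells and plasma cells it restrains antibody responses. Clec7a lies on chromosome 6 within the natural killer gene complex, a cluster of lectin-like receptor genes, and Fcgr2b lies on chromosome 1 beside other Fc receptor and SLAM family genes.

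Values are CPM, counts scaled to a common library total, on library sizes adjusted by TMM, a method that aligns the bulk of genes between libraries. In all, 5 of the 6 libraries held between 26942006 and 36966446 counts. FcgRIIb-labelled PBS replicate 2 held 719494 counts and had counts for 10357 genes, against 17001 to 20199 in the other 5 libraries. There, 3 counts were worth 4.17 CPM, so low genes could read 0 in that library whatever their level. Values without it are given beside the results as "without replicate 2". Its mitochondrially encoded genes took 2.80% of counts, against 0.698% to 0.803% in the other 5. The libraries also differed in a tilt between short and long genes: the rank correlation of a gene's deviation with exon length, given as a description over 5288 abundant genes, ran from -0.33 to 0.26 in Dectin-1 knockout libraries and from -0.65 (replicate 3) to 0.14 in FcgRIIb-labelled ones. The monocyte markers Csf1r (1425 to 2795 CPM) and Lyz2 (19530 to 35187 CPM) were high in all 6 libraries. Some markers of other cells were low in them. Cd3e of T cells reached at most 0.682 CPM and Ncr1 of NK cells 0.796 CPM, and the platelet gene Pf4 had no count. Antibody genes were not low in all of them: Igkc reached 1007 CPM and Jchain 703 CPM, both in FcgRIIb-labelled libraries.

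The targeted genes were read first, as a check of the labels. Clec7a (chr6:129438554-129449742 on GRCm39, minus strand) stood at 2.24, 2.36 and 4.05 CPM in the 3 Dectin-1 knockout libraries and at 530.2, 956 and 742 CPM in the 3 FcgRIIb-labelled libraries. The groups were far apart, and Clec7a fell by 8.01 ± 0.44 (SE) on the log2 scale (edgeR's quasi-likelihood test with Benjamini-Hochberg adjustment, adjusted p = 2.79e-09). Without FcgRIIb-labelled replicate 2 the log2 fold change was -7.81 (adjusted p = 1.97e-08). In wild-type PBS libraries Clec7a read 821, 522 and 360.4 CPM.

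Fcgr2b (chr1:170786186-170804116 on GRCm39, minus strand) did not separate the genotypes. It stood at 219, 211 and 229 CPM in Dectin-1 knockout libraries, at 138, 249.9 and 187 CPM in FcgRIIb-labelled libraries and at 208, 302 and 299 CPM in wild type. The groups overlapped, with a log2 fold change of 0.28 ± 0.25 (edgeR's quasi-likelihood test, adjusted p = 0.951), and 0.44 without replicate 2 (0.873). Counts were made over all exons of the gene, the labels do not say which part was deleted, and counting used no strand option, so that reads of the antisense gene model Gm38204 are included. The count of Fcgr2b therefore does not check the FcgRIIb label, and these libraries are called FcgRIIb-labelled throughout.

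Of 17040 genes tested, 15 were called at an adjusted p under 0.05, which is 0.088% of genes. The Dectin-1 knockout was higher for 3 of them (0.0176% of genes tested) and lower for 12 (0.0704%). The 3 higher genes were Emp1, Hebp1 and Klra17. The 12 lower genes were Clec7a itself, its neighbours Klri2, Klrb1b, Klrb1f, Eps8 and the gene model Gm15987, and 6 immunoglobulin genes: Igkc, Igkv1-110, Igkj2, Igkj5, Ighj3 and Ighj4. At an unadjusted p under 0.05 stood 307 higher (1.8%) and 478 lower genes (2.81%). The median log2 fold change over all genes tested was -0.00061. In bulk RNA of a sort, fewer cells of a type and less RNA per cell cannot be told apart.

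Without FcgRIIb-labelled replicate 2, 8 of 18068 genes tested were called, and all 8 were among the 15: Clec7a, Emp1, Hebp1, Klra17, Eps8, Klrb1b, Gm15987 and Igkj2. The other 7 kept their direction and missed the threshold, with adjusted p-values from 0.0719 (Igkv1-110 and Ighj3) to 0.123 (Klri2 and Ighj4). Leaving out any 1 of the 3 Dectin-1 knockout libraries left 5 of the 15 called, and leaving out FcgRIIb-labelled replicate 1 or 3 left 13 or 6 of them. Clec7a, Emp1, Hebp1, Klra17 and Eps8 were called in each of the 19 alternative fits of this comparison.

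The 2 groups of 3 libraries did not overlap for 11 of the 15 called genes, against 8.73% of all genes tested. The exceptions were Klrb1b, Klri2, Igkj5 and Ighj3, which had no count in the shallow replicate 2. The genes were called on these same libraries, so this count is a description only.

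Emp1 (chr6:135339543-135360171), a small membrane protein of the PMP22 family, had the largest rise among the called genes. It read 527, 370.5 and 338 CPM in Dectin-1 knockout libraries against 8.42, 11.3 and 12.97 CPM in FcgRIIb-labelled ones, a log2 fold change of 5.27 ± 0.61 (edgeR's quasi-likelihood test, adjusted p = 0.000173) and of 5.28 without replicate 2. Wild-type libraries were uneven for this gene, at 24.5, 25.8 and 2.48 CPM, and all lay far below the Dectin-1 knockout. Hebp1 (chr6:135114520-135175020), a heme-binding protein, read 71.7, 75.4 and 96.7 CPM against 4.23, 0 and 4.75 CPM, where the 0 is the shallow library. Its log2 fold change was 4.22 ± 0.43 (adjusted p = 2.70e-05, same test), and 4.18 without replicate 2. The gene Fam234b and 3 gene models overlap Hebp1, and since reads could count for each gene they overlap, its count is not free of theirs.

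Klra17 (chr6:129808117-129853635) encodes Ly49Q, a Ly49 family receptor found on myeloid and plasmacytoid dendritic cells. It read 40.2, 32.4 and 37.1 CPM in Dectin-1 knockout libraries and 2.35, 8.47 and 4.59 CPM in FcgRIIb-labelled ones. Every Dectin-1 knockout library was above every FcgRIIb-labelled library, with a log2 fold change of 3.36 ± 0.41 (edgeR's quasi-likelihood test, adjusted p = 0.000307) and of 3.42 without replicate 2. Ly49 genes are near-identical in stretches, so its count may hold reads of relatives.

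Eps8 (chr6:137454243-137631874), a regulator of the actin cytoskeleton, moved the other way. Its levels were 9.24, 5.73 and 3.42 CPM in Dectin-1 knockout libraries and 47.7, 33.9 and 51.9 CPM in FcgRIIb-labelled ones. It fell by 2.95 ± 0.32 on the log2 scale (edgeR's quasi-likelihood test, adjusted p = 0.000141), with an adjusted p of 0.000304 without replicate 2. Wild-type libraries, at 69.1, 76.8 and 74.5 CPM, lay above both groups.

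**Figure D1:**
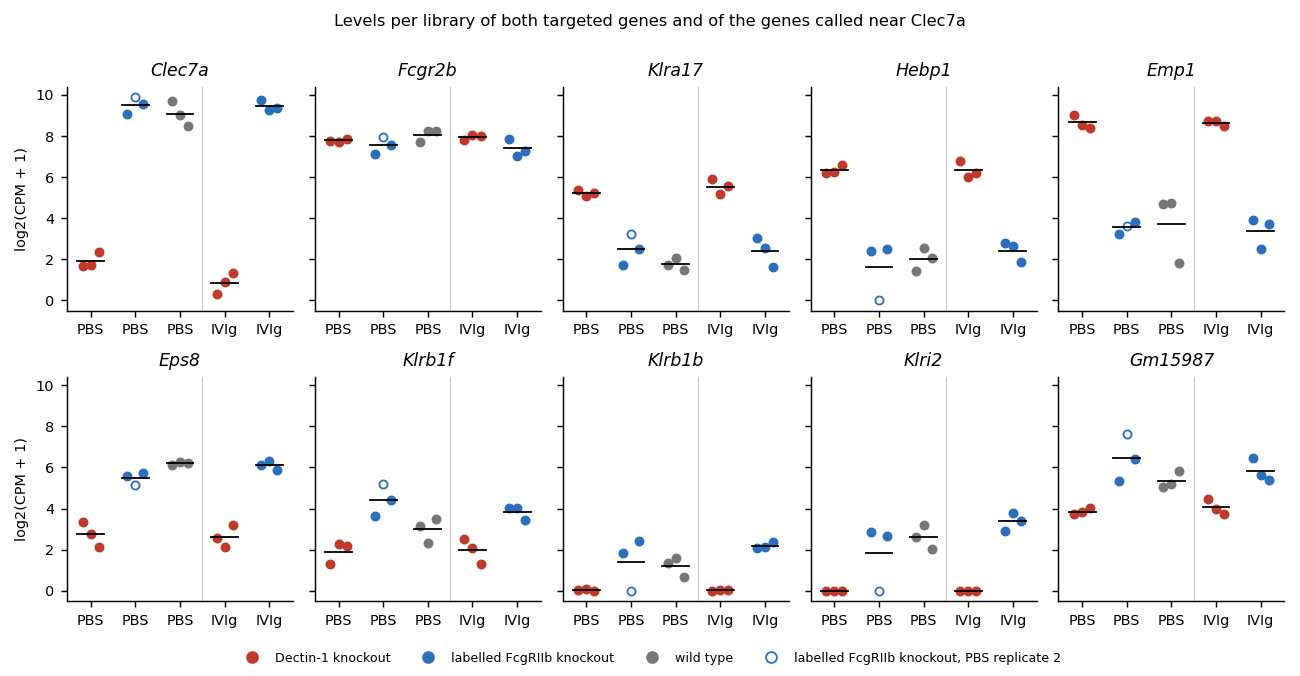
Level per library, as log2(CPM + 1), of Clec7a, Fcgr2b and the other genes called within 10 Mb of Clec7a, in the PBS libraries of the 3 genotypes and the IVIg libraries of the Dectin-1 knockout and the FcgRIIb label; points are libraries, bars are means of the 3, and the open point is the shallow FcgRIIb-labelled replicate 2. Klra17, Hebp1 and Emp1 sit high and Clec7a and Eps8 low in Dectin-1 knockout mice after PBS and after IVIg, while Fcgr2b overlaps between the groups.

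Lectin-like receptor genes that NK cells are known for fell in the Dectin-1 knockout, at low levels. Klrb1b, the inhibitory receptor NKR-P1B, read 0.0303, 0.0531 and 0 CPM against 2.52, 0 and 4.36 CPM, a log2 fold change of -6.60 ± 1.04 (edgeR's quasi-likelihood test, adjusted p = 0.0143). Klrb1f, of the same NKR-P1 family, read 1.45, 3.77 and 3.53 CPM against 11.3, 35.3 and 20.5 CPM (log2 fold change -2.53 ± 0.47, adjusted p = 0.0422). Klri2, a receptor that pairs with other lectin-like chains, had no count in any of the 3 Dectin-1 knockout libraries and read 6.38, 0 and 5.37 CPM in the FcgRIIb-labelled ones. Against a floor of 3 counts over the Dectin-1 knockout group this is at least 127-fold lower (adjusted p = 0.0215). Klrb1f and Klri2 missed the threshold without FcgRIIb-labelled replicate 2, at adjusted p = 0.107 and 0.123. Over all alternatives the adjusted p of Klrb1f ran from 1.18e-05 to 1, that of Klri2 from 1.9e-09 to 0.367, that of Klrb1b from 2.4e-06 to 0.543 and that of Gm15987 from 1.78e-08 to 0.455. The gene model Gm15987 (12.2, 13.3 and 15.1 CPM against 40.2, 195 and 84.2 CPM, log2 fold change -2.60 ± 0.42, adjusted p = 0.0143) overlaps Clec2g and a microRNA, and its count cannot be assigned to 1 of them. It was called in 11 of 19 alternatives, Klrb1b in 10 of 18, Klri2 in 8 of 18 and Klrb1f in 5 of 19.

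The called genes clustered in position. Within 10 Mb of the start of Clec7a, 9 of 225 genes tested were called, which is 4% of them, against 6 of the 16815 genes elsewhere (0.0357%). Of these 9, 3 were higher and 6 lower. Klrb1b, Gm15987 and Klrb1f start 0.65, 0.51 and 0.42 Mb to one side of Clec7a, and Klri2 and Klra17 0.27 and 0.37 Mb to the other. Hebp1, Emp1 and Eps8 lie farther out, at 5.68, 5.9 and 8.02 Mb. A window of 5 Mb held 6 called genes of 131 tested, and one of 20 Mb the same number as 10 Mb, 9 of 368. Of the 207 genes tested within 10 Mb of Fcgr2b, 0 were called by edgeR's quasi-likelihood test and 11 had an unadjusted p under 0.05, which is 5.31% of them against 4.61% of all genes tested.

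**Figure D2:**
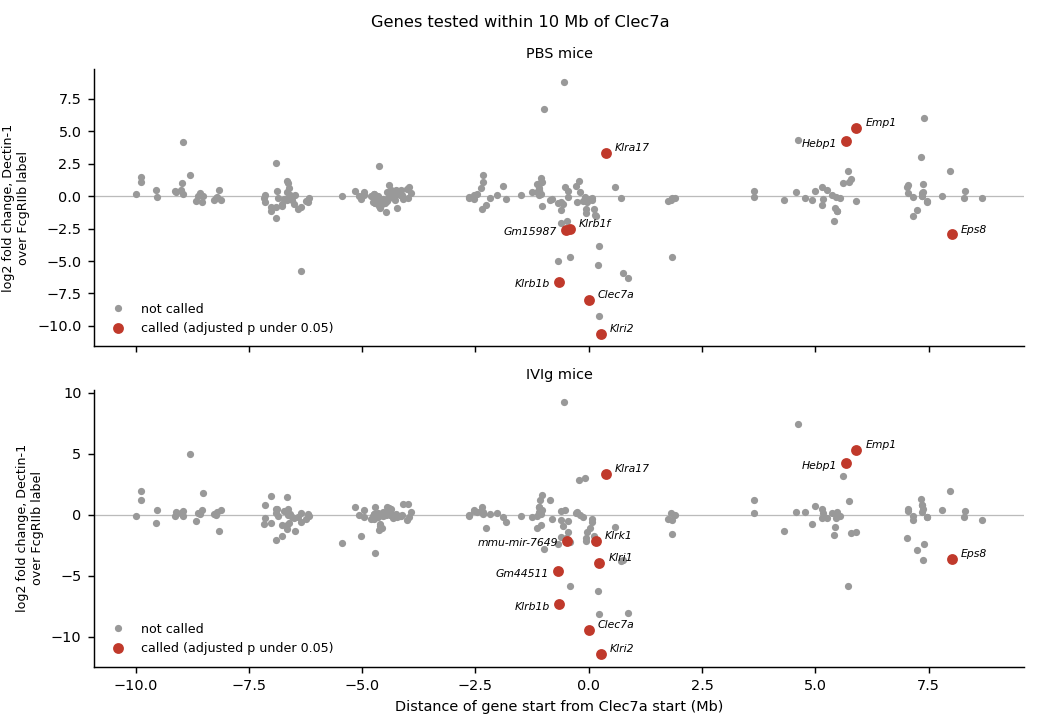
Log2 fold change of the Dectin-1 knockout over the FcgRIIb label for each gene tested within 10 Mb of Clec7a, against the distance of its start from that of Clec7a in Mb, in PBS mice (top) and IVIg mice (bottom); red points were called. The 9 genes called in PBS mice lie on both sides of 0, 5 of them within 0.65 Mb of Clec7a beside Clec7a itself and 3 between 5.68 and 8.02 Mb away.

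The IVIg libraries gave a second reading of the same genotype difference in other mice. All 15 genes had the same sign there, and all 15 had groups of libraries that did not overlap, against 11.6% of all genes tested. The IVIg contrast called 20 genes (0.117% of those tested), and 10 of the 15 were among them. Emp1 (log2 fold change 5.30 ± 0.55), Hebp1 (4.20 ± 0.37), Klra17 (3.37 ± 0.35) and Eps8 (-3.60 ± 0.32) were called there too, with adjusted p-values from 2.58e-06 to 2.23e-05 (edgeR's quasi-likelihood test). Called in PBS but not in IVIg mice were Klrb1f, Gm15987, Igkj5, Ighj3 and Ighj4, with IVIg adjusted p-values of 0.0561, 0.0655, 0.55, 0.641 and 0.0636.

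A difference between the PBS and the IVIg contrast was called for no gene by edgeR's quasi-likelihood test (0%, smallest adjusted p = 0.838), while 709 genes had an unadjusted p under 0.05. DESeq2 called 4 genes for this difference and limma 0. The 4 were Retnlg, Tanc2, Gm10463 and 4930447K03Rik, named here because they are few and after their values were seen.

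**Figure D3:**
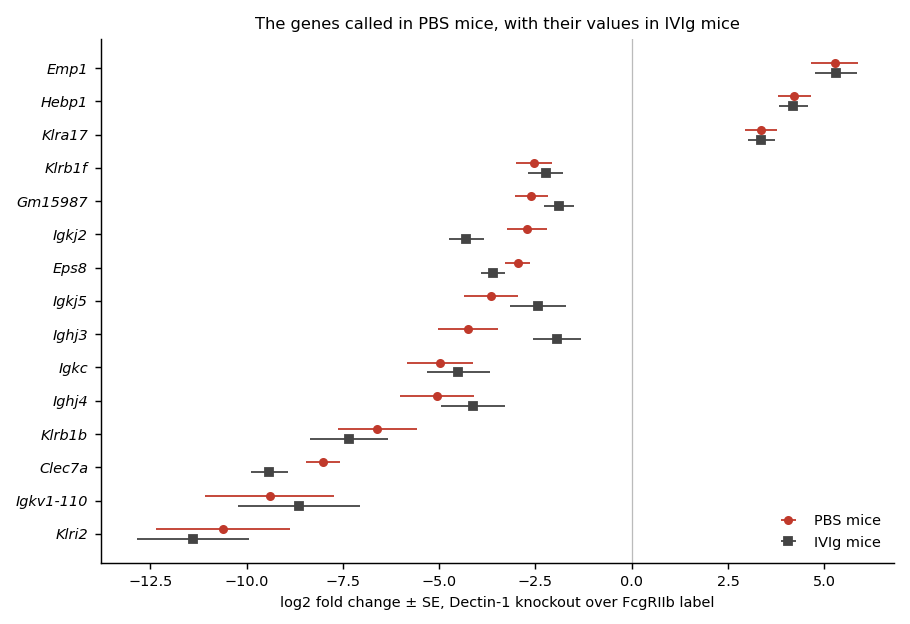
Log2 fold change ± SE of the Dectin-1 knockout over the FcgRIIb label for the 15 genes called in PBS mice (circles), with the value of the same gene in IVIg mice (squares). Each gene lies on the same side of 0 in both; the fitted value of Klri2, which had no count in either Dectin-1 knockout group, depends on the model and is no measure of size.

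Both groups were also compared with wild-type PBS libraries, which therefore tie the 2 sets of values together. In these values the genes near Clec7a given here and the immunoglobulin genes differed. The Dectin-1 knockout against wild type gave log2 fold changes of -7.65 for Clec7a, 4.55 for Emp1, 4.61 for Hebp1, 3.91 for Klra17 and -3.57 for Eps8. All 5 were called (edgeR's quasi-likelihood test), as was Klri2, which had no count in the Dectin-1 knockout. The FcgRIIb-labelled group against wild type gave 0.36, -0.72, 0.39, 0.54 and -0.61 for the same genes and 0.07 for Klri2, and none was called. For Igkc the 2 values were -0.31 and 4.67, and for Igkv1-110 they were -2.50 and 6.90, with adjusted p-values of 0.952 and 0.909 for the Dectin-1 knockout and of 0.123 and 0.129 for the FcgRIIb label. No gene was called in the FcgRIIb-labelled group against wild type, where 1644 genes had an unadjusted p under 0.05.

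Antibody transcripts were lower in the Dectin-1 knockout than in the FcgRIIb-labelled group. Igkc, the constant region of the kappa light chain, read 24.2, 13.1 and 12.9 CPM in Dectin-1 knockout libraries and 297, 1007 and 395 CPM in FcgRIIb-labelled ones. It fell by 4.98 ± 0.85 on the log2 scale (edgeR's quasi-likelihood test, adjusted p = 0.0215), and without the shallow replicate 2 it missed the threshold (-4.36, adjusted p = 0.112). Over its alternatives the adjusted p of Igkc ran from 4.59e-06 to 0.693. Wild-type PBS libraries, at 11.9, 32.3 and 17.9 CPM, were at the level of the Dectin-1 knockout.

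Igkv1-110, a kappa variable segment, read 0.151, 0.504 and 0.0744 CPM in Dectin-1 knockout libraries against 129, 398 and 117 CPM (log2 fold change -9.40 ± 1.68, adjusted p = 0.0215, same test). The joining segments followed at lower levels: Igkj2 read 2.94, 2.12 and 0.558 CPM against 7.67, 49.4 and 14.5 CPM, and Ighj4 1.15, 0.823 and 0 CPM against 26.7, 21.2 and 20.3 CPM. The log2 fold changes were -2.72 ± 0.51 for Igkj2 and -5.05 ± 0.95 for Ighj4 (both adjusted p = 0.0466), -3.65 ± 0.69 for Igkj5 (0.0476) and -4.25 ± 0.78 for Ighj3 (0.0337). Each of these 5 segments was called in 4 to 9 of 18 alternatives. Of the 100 variable, diversity and joining segments tested, 61 were below 0 and their median was -0.85. With an unadjusted p under 0.05 stood 21 lower and 0 higher segments of the 100, against 2.81% lower and 1.8% higher over all genes. Only 46 of 160 Igkv and 38 of 183 Ighv segments passed the filter. A segment near 0 in the Dectin-1 knockout could pass through the FcgRIIb-labelled libraries alone. Segments of the same transcripts are also not independent, so these counts are descriptions only.

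The variable segments used were few. Among all kappa variable (Igkv) counts of a library, Igkv1-110 took 75.9% (95% Wilson interval 74.7% to 77.1%), 53.8% (49.5% to 58.0%) and 51.4% (50.2% to 52.7%) in the 3 FcgRIIb-labelled PBS libraries. Igkv1-117 took a further 11.4%, 35.9% and 33.4%. Among heavy variable (Ighv) counts, Ighv1-81 took 82.1%, 90.2% and 85.2%, the second from only 61 counts (interval 80.2% to 95.4%). In the Dectin-1 knockout libraries these shares were at most 4.49%, 0.148% and 10.3%. There the leading segment differed from library to library and took 15.3% to 27.1% of Igkv counts. These intervals cover counting error only.

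The sequences of Igkv1-110 and Igkv1-117 are shown because these segments led the kappa counts of every FcgRIIb-labelled library and are close relatives. The last 300 coding bases of each, from GENCODE mouse release 21 on GRCm38, plus strand, chr6:68270968-68271267 and chr6:68121528-68121827, differ at 10 positions (96.7% identity), which are in capitals. With so few differences, reads could be split between the 2 segments by the alignment.
Igkv1-110: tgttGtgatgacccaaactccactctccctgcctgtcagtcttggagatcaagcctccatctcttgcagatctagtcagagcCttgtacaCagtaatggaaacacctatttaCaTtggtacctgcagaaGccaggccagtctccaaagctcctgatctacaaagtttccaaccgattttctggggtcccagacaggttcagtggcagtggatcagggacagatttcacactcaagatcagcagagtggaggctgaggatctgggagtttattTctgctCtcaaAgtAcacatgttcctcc
Igkv1-117: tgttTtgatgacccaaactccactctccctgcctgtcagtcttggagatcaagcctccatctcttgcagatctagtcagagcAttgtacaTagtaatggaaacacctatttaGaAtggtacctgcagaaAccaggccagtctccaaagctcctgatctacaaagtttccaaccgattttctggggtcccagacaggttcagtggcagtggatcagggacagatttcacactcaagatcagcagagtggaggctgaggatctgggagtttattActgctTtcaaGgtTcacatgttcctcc

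The last 300 coding bases of Ighv1-81 (chr12:115920279-115920578 on GRCm38, minus strand), which led the heavy chain counts, and the joining segments Igkj2 (chr6:70722916-70722954, plus strand) and Ighj4 (chr12:113428514-113428567, minus strand), which were called, follow from the same release, with no capitals.
Ighv1-81: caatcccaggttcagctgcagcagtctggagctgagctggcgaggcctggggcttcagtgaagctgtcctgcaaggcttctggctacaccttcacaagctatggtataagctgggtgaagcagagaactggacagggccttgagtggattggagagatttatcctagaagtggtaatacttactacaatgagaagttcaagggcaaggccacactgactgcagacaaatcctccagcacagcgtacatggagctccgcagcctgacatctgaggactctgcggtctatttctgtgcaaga
Igkj2: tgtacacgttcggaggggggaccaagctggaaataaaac
Ighj4: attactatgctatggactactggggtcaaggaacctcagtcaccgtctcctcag

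The same 3 variable segments were prominent beyond the FcgRIIb-labelled PBS group. In the 3 FcgRIIb-labelled IVIg libraries Ighv1-81 took 51.3% to 90.5% of Ighv counts, and Igkv1-110 and Igkv1-117 held the first and second places among Igkv counts. In 1 wild-type library, IVIg replicate 3, they took 46.4% (Igkv1-110), 42.5% (Igkv1-117) and 92.7% (Ighv1-81), while the other wild-type libraries were at most at 14.9%, 8.15% and 15.3%. That wild-type library shares its title code with FcgRIIb-labelled PBS replicate 3. Whether the shared code has a part in this was not tested. Igkc read 206 CPM and Igha 258 CPM in that library.

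**Figure D4:**
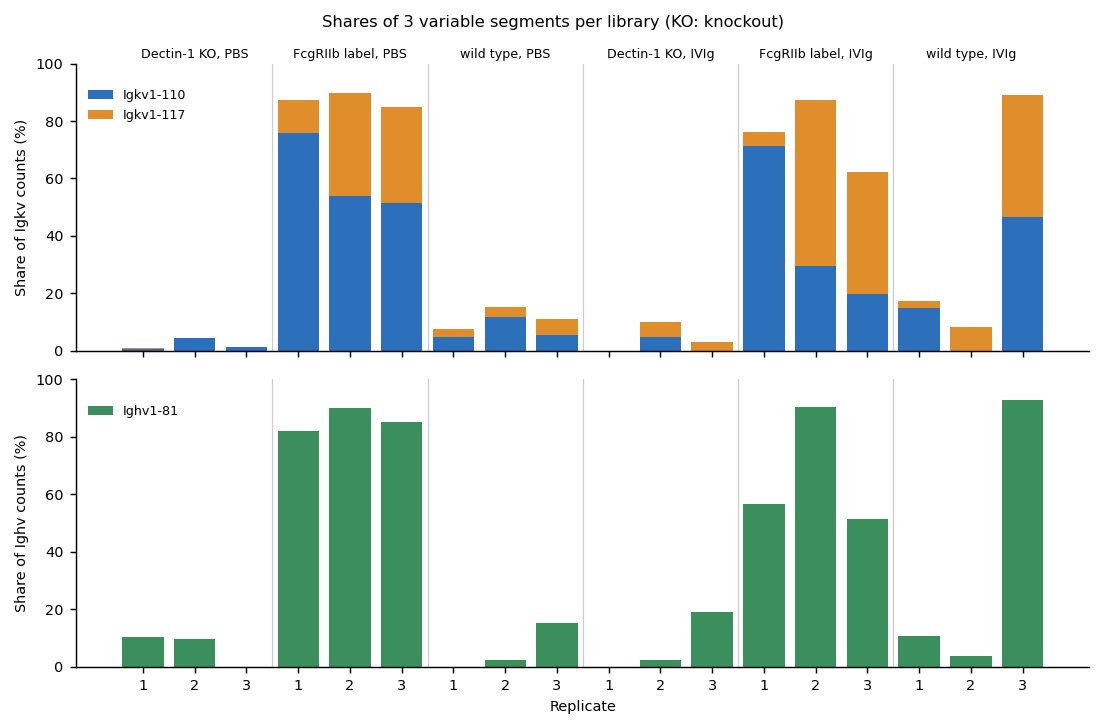
Share of all Igkv counts taken by Igkv1-110 and Igkv1-117 (top, stacked, in percent) and of all Ighv counts taken by Ighv1-81 (bottom, in percent) in each of the 18 libraries, by group and replicate. The bars are high in all 6 FcgRIIb-labelled libraries and in wild-type IVIg replicate 3, and in the other 11 at most 14.9% (Igkv1-110), 8.15% (Igkv1-117) and 18.8% (Ighv1-81).

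Other antibody genes stood with them. Igha, the constant region of IgA, read 31.9, 0.903 and 3.79 CPM in Dectin-1 knockout libraries and 536, 618 and 422 CPM in FcgRIIb-labelled ones, and Jchain, which joins IgA and IgM into polymers, 13.3, 4.805 and 3.27 CPM against 99.9, 703 and 158 CPM. Neither passed the test (edgeR's quasi-likelihood test, log2 fold change -5.40 ± 1.33, adjusted p = 0.369, and -5.22 ± 1.04, adjusted p = 0.0861), though the groups were apart for both. Without replicate 2 the values were -5.29 (adjusted p = 0.678) for Igha and -4.16 (0.337) for Jchain. Of the alternatives, DESeq2 and the fit with no filter on low counts called Jchain. So did fits on these 6 libraries alone, with and without replicate 2, which also called Igkv1-117 and Ighv1-81. Ighm, the constant region of IgM, was alike in all 6 libraries at 241 to 355 CPM. All immunoglobulin genes together took 0.0366% to 0.0397% of counts in Dectin-1 knockout libraries, 0.143% to 0.290% in FcgRIIb-labelled ones and 0.0303% to 0.0335% in wild-type PBS libraries.

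The list of plasma cell markers holds Igha and Jchain themselves, and the IgG constant genes Ighg1, Ighg2b, Ighg2c and Ighg3. Its counts, median and sums are therefore not separate from the values above. Of 16 plasma cell markers 15 passed the filter on low counts, with 12 below 0, 5 of them at an unadjusted p under 0.05, 0 called and a median of -3.29. These 5 are 33.3% of the list, against 2.81% of all genes, and without replicate 2 the median was -1.90. Their summed level was 624 to 713 CPM in Dectin-1 knockout libraries, 1323 to 2232 CPM in FcgRIIb-labelled ones and 652 to 724 CPM in wild type. Mzb1, a chaperone of antibody-secreting cells, read 0.909, 0.398 and 0.558 CPM against 5.18, 0 and 7.33 CPM (log2 fold change -3.29 ± 0.74, adjusted p = 0.181, and -3.32 without replicate 2). Tnfrsf17, the plasma cell receptor BCMA, had no count in Dectin-1 knockout and wild-type PBS libraries and at most 1.24 CPM in FcgRIIb-labelled ones. Xbp1 (330 to 524 CPM) and Prdm1 (8.92 to 19.8 CPM), which monocytes also express, overlapped between the groups. Sdc1, also in the list, went the other way, at 5.54, 4.94 and 5.06 CPM in Dectin-1 knockout libraries against 3.34, 0 and 4.13 CPM. Of 16 B cell markers, 1 was called (Igkc) and 13 were below 0 (median -0.50, and 0.42 without FcgRIIb-labelled replicate 1), and Ms4a1 and Cd79a stayed at or below 9.62 and 12.5 CPM in all 6 libraries. The part of plasma cell RNA in the antibody genes was not tested.

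Markers of T and NK cells were low in all libraries and lower in the Dectin-1 knockout. The 22 T cell markers summed to 17.7 to 28.1 CPM in Dectin-1 knockout libraries, 43.6 to 53.6 CPM in FcgRIIb-labelled ones and 35.5 to 53.5 CPM in wild-type PBS libraries. All 22 had a fold change below 0 (median -1.01, and -1.01 without replicate 2), 5 at an unadjusted p under 0.05 (22.7%, against 2.81% of all genes) and 0 called. Thy1 (log2 fold change -2.15 ± 0.59, adjusted p = 0.541) and Cd3g (-2.67 ± 0.82, adjusted p = 0.832) had the smallest p-values. In the shallow replicate 2, 17 of the 22 had no count. The 14 NK cell markers summed to 15.03 to 28.8 CPM, 48.0 to 66.2 CPM and 35.0 to 47.2 CPM in the same order. Of the 13 that passed the filter 12 were below 0, with a median of -0.86 (-0.84 without replicate 2) and 0 called. Klrk1 and Klrd1, which lie near Clec7a, made up much of the NK sum, with means of 17.4 and 23.5 CPM in FcgRIIb-labelled libraries.

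The NK list holds Klrk1, the receptor NKG2D, Klrd1, CD94, and Klre1, which lie 0.15 Mb or less from Clec7a. Klrb1c, also in the list, lies farther out on the other side of Clec7a. Klrk1 read 9.15, 7.43 and 6.88 CPM against 23.4, 5.65 and 23.2 CPM (log2 fold change -1.50 ± 0.35, adjusted p = 0.256, and -1.56 without replicate 2). After IVIg the same difference was -2.15 ± 0.33 (edgeR's quasi-likelihood test, adjusted p = 0.00504). Of the 27 Ly49, NKG2 and related receptors of this cluster, 16 passed the filter, and 14 of these were below 0. Klra17 was called higher and Klri2, Klrb1b and Klrb1f lower, and the median was -1.48, against -2.34 in IVIg mice. Klri1, a relative of Klri2, read 0.182, 0.611 and 0 CPM against 3.82, 25.4 and 3.78 CPM (log2 fold change -3.86 ± 0.99, adjusted p = 0.369 in PBS and 0.0247 in IVIg mice). How far T and NK cell RNA enters the values of these receptors was not tested.

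Non-classical monocytes, the patrolling Ly6C-low cells that depend on Nr4a1, are marked by a set of genes that stood higher in the Dectin-1 knockout after PBS, though none was called. Of 28 markers, 27 were above 0, with a median of 0.51, and 11 had an unadjusted p under 0.05 in that direction (39.3%, against 1.8% of all genes). Cd300e, an activating receptor of monocytes, read 189, 292 and 289 CPM against 155, 117 and 116 CPM (log2 fold change 0.96 ± 0.29, adjusted p = 0.832). Bcl2, the survival factor, read 52.0, 51.1 and 52.0 CPM against 21.04, 5.65 and 11.5 CPM (1.71 ± 0.49, adjusted p = 0.647). The groups were apart for both, and without replicate 2 the values were 0.92 for Cd300e and 1.67 for Bcl2. Ace, Spn and Treml4, singled out after their values were seen, stood at means of 1522, 1001 and 328 CPM in Dectin-1 knockout and 750.5, 573 and 213 CPM in FcgRIIb-labelled libraries. Cx3cr1, a defining gene of these cells, was level (log2 fold change -0.08), and Nr4a1 had 0.54 (unadjusted p = 0.0867).

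The median of this list was 0.52 without FcgRIIb-labelled replicate 2 and 0.54 with the gene length trend removed, and it ran from 0.43 to 0.60 over the 19 alternatives. In IVIg mice it was -0.10, with 13 of 28 above 0. For 8 of the 28 the difference between the PBS and IVIg contrasts had an unadjusted p under 0.05 (against 4.16% of all genes), and for 0 an adjusted one. Against wild-type PBS libraries the list's median was 0.46 in the Dectin-1 knockout and -0.18 in the FcgRIIb-labelled group. The 28 classical monocyte markers had a median of -0.06, with 11 above 0 and 0 called, and the median turned to 0.21 without FcgRIIb-labelled replicate 3. Ly6c2, their defining gene, read 506 to 625 CPM and 452 to 916 CPM in the 2 groups. The summed level of the non-classical list was 14371 to 15565 CPM in the Dectin-1 knockout and 9537 to 13231 CPM in the FcgRIIb label.

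**Figure D5:**
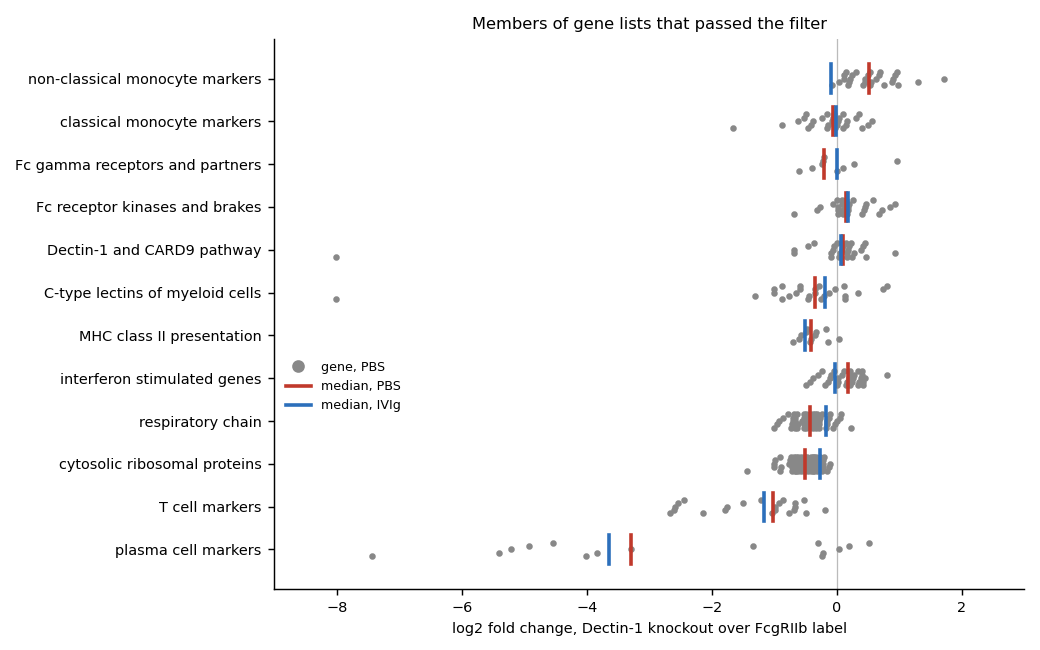
Log2 fold change of the Dectin-1 knockout over the FcgRIIb label in PBS mice for each member of 12 gene lists that passed the filter (grey points), with the list's median in PBS (red) and IVIg mice (blue). The non-classical markers sit to the right of 0 in PBS but not in IVIg mice, the respiratory chain and ribosomal protein genes sit to the left of 0, and the plasma cell markers spread far to the left.

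The Fc gamma receptors did not separate the groups by the test. The activating receptor Fcgr4 read 187, 192 and 189.6 CPM in Dectin-1 knockout libraries and 64.4, 167 and 103 CPM in FcgRIIb-labelled ones (log2 fold change 0.96 ± 0.41, unadjusted p = 0.0315, adjusted p = 0.951). The groups did not overlap in PBS mice, and in IVIg mice the value was -0.37. Without replicate 2 it was 1.19 (adjusted p = 0.873). Fcgr1, the high-affinity receptor, read 152, 183 and 181 CPM against 146, 109 and 233 CPM. It overlapped between the groups, as did Fcgr3 (-0.22 ± 0.23) and Fcer1g, the common signalling chain (-0.20 ± 0.32, and 0.07 without replicate 2). The list of 10 receptors and partners had 9 measured members, 0 called and a median of -0.20. That median kept its sign in 15 of 19 alternatives and ran from -0.30 to 0.12 over them. Among others it turned positive, to 0.09, with the gene length trend removed, to 0.08 without FcgRIIb-labelled replicate 1 and to 0.01 with limma voom.

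Downstream, the 29 kinases and brakes of Fc receptor signalling had 24 members above 0 (median 0.15, and 0.12 without replicate 2), 3 at an unadjusted p under 0.05 (10.3%, against 1.8% of all genes) and 0 called. Vav3, a guanine nucleotide exchange factor, read 69.2, 70.4 and 61.4 CPM against 44.6, 4.24 and 31.5 CPM (log2 fold change 0.94 ± 0.28, adjusted p = 0.832, and 0.82 without replicate 2), and Pik3ap1, the PI3-kinase adapter BCAP, had 0.68 ± 0.23 (adjusted p = 0.951). The kinase Syk stood at 0.47 (unadjusted p = 0.240) and the inositol phosphatase Inpp5d, through which FcgRIIb acts, at 0.16 (0.553). Of the 27 measured genes of the Dectin-1 and CARD9 pathway, Clec7a alone was called. The others spread from -0.68 (Src, Il1b) to 0.94 (Vav3), with Card9 at -0.06.

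The C-type lectins of myeloid cells, a list that holds Clec7a itself, tended to lower values in the Dectin-1 knockout. Of 25 measured, 19 were below 0 (median -0.34), Clec7a was the 1 called, and 7 including it had an unadjusted p under 0.05, which is 28% against 2.81% of all genes. Cd209a, a DC-SIGN homologue of monocytes and dendritic cells, read 243, 175 and 134 CPM against 337, 380 and 314 CPM (log2 fold change -0.88 ± 0.23, adjusted p = 0.463, and -0.82 without replicate 2). Its groups were apart in PBS mice and its value was -0.16 in IVIg mice. The list's median was -0.21 without replicate 2, and it shrank to -0.19 with the gene length trend removed and to -0.11 with replicate 2 left out as well.

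Housekeeping lists of short genes had medians below 0. All 78 cytosolic ribosomal protein genes were below 0 (median -0.51, 0 called), as were 57 of 61 nuclear respiratory chain genes (median -0.42, 0 called), whose median turned to 0.08 without FcgRIIb-labelled replicate 3. The ribosomal median shrank to -0.09 without that library, whose ribosomal protein genes summed to 119170 CPM. Replicate 1 of the same group, at 55600 CPM, lay within the Dectin-1 knockout range of 55112 to 68713 CPM. Rpl10a, of the large ribosomal subunit, read 283.5, 327.5 and 426 CPM against 376, 857 and 749.6 CPM, with overlapping groups. The fold change over all abundant genes rose with exon length (rank correlation 0.44 over 5288 genes, a description). With each library's length trend removed the medians were -0.26 and -0.16. The 15 mitochondrially encoded genes had a median of -0.81. Of them 8 (53.3%, against 2.81% of all genes) had an unadjusted p under 0.05 downward. The median was -0.15 without replicate 2 and 0.20 with the length trend removed as well. In IVIg mice it was -1.45, with 0 of the 15 above 0. The groups did not overlap there for 13 of them, against 11.6% of all genes tested. In replicate 2 mt-Rnr2 read 5594 CPM against 751 to 1693 CPM in the other FcgRIIb-labelled libraries. MHC class II genes had 11 of 12 members below 0 (median -0.42, -0.34 without replicate 2, 0 called), with H2-Aa at 1689, 1581 and 1427 CPM against 1868, 3674 and 2161 CPM (log2 fold change -0.70 ± 0.37, adjusted p = 0.951, and -0.36 without replicate 2).

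Outside chromosome 6 and the antibody genes no gene passed the test, and the genes with the smallest p-values are given as values. Higher in all 3 Dectin-1 knockout libraries were Abcc3, an organic anion exporter (12.9, 12 and 6.66 CPM against 3.24, 0 and 2.16 CPM, log2 fold change 1.99 ± 0.42, adjusted p = 0.131), and Spred1, an inhibitor of Ras signalling (78.0, 73.4 and 69.2 CPM against 43.7, 25.4 and 27.5 CPM, 1.08 ± 0.26, adjusted p = 0.316). Its relative Spred2 had 1.45 ± 0.38 and the reticulophagy receptor Retreg1 1.06 ± 0.27, with Lrrc8b and Mbd4 at 1.09 and 1.31. Lower were Serpinb1a, an inhibitor of neutrophil proteases (13.8, 13.5 and 21.5 CPM against 25.9, 45.2 and 63.6 CPM, -1.47 ± 0.38, adjusted p = 0.460), Ceacam19 (-1.06 ± 0.29) and the mitochondrial transfer RNA gene mt-Tl1 (-1.18 ± 0.27). Without replicate 2 Abcc3 stood at 1.97, Spred1 at 1.05 and Serpinb1a at -1.46, and no gene of these was called. In IVIg mice Abcc3 stood at 0.69, Spred1 at 0.10 and Serpinb1a at 0.05.

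The remaining lists held 0 called genes and at most 4 members at an unadjusted p under 0.05 in either direction. Of the 17 dendritic cell markers 4 were lower at that threshold (23.5%, against 2.81% of all genes) and 0 higher. Of the 24 unfolded protein response genes 3 were lower (12.5%) and 1 higher (4.17%, against 1.8% of all genes). Their medians were 0.17 for interferon stimulated genes (24 of 34 above 0), 0.36 for cell cycle genes, 0.39 for red pulp macrophage markers, 0.44 for neutrophil markers and 0.37 for erythroid markers. They were -0.13 for NF-kB feedback genes and cytokines, -0.17 for unfolded protein response genes, -0.18 for immediate early genes, -0.26 for dendritic cell markers and -0.21 for platelet markers. Beside Fcgr2b, the SLAM family receptors had a median of -0.06 and the PYHIN genes of the Ifi200 cluster one of 0.15. Several of these medians turned direction: the SLAM median kept its sign in 10 of 19 alternatives, the neutrophil and PYHIN medians in 15, the platelet and erythroid medians in 17 and the immediate early one in 18. The platelet median ran from -0.81 to 2.73, the latter without FcgRIIb-labelled replicate 1. Of the neutrophil markers, Retnlg read 0.333, 0.611 and 1.41 CPM against 6.68, 0 and 0.849 CPM in PBS mice (log2 fold change -2.33 ± 1.14), and 18.7, 53.7 and 4.51 CPM against 1.18, 0.879 and 0.207 CPM in IVIg mice (5.24 ± 0.93, adjusted p = 0.0188).

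Some leading members of the lists are given as values. Aim2, the cytosolic DNA sensor of the PYHIN family, read 56.9, 67.99 and 53.05 CPM against 42.2, 18.35 and 39.8 CPM, and every Dectin-1 knockout library was higher (log2 fold change 0.61 ± 0.24, edgeR's quasi-likelihood test, adjusted p = 0.951). Ern1, the stress sensor IRE1 alpha of the endoplasmic reticulum, was likewise apart at 108, 135 and 122 CPM against 92.03, 70.6 and 47.1 CPM (0.80 ± 0.36). Hpgd, which breaks down prostaglandins, was apart the other way at 424, 414 and 446 CPM against 465, 1384 and 669 CPM (-0.92 ± 0.33, and -0.40 without replicate 2). The interferon-induced Oasl2 overlapped, at 143, 214.5 and 172 CPM against 158, 64.9 and 128 CPM (0.46 ± 0.24). So did Ms4a4c, a marker of classical monocytes, at 408, 455 and 561 CPM against 457, 1367 and 864 CPM (-0.88 ± 0.35, and -0.47 without replicate 2).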

How the data were processed

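STAR aligned the reads to GRCm39, as the submitters' processing notes list it; edgeR is named there too. The authors deposited raw counts per gene with each gene's exon length. Per the file headers, featureCounts 2.0.2 made them from Ensembl 104 annotation, counting read pairs, giving a pair to every gene it overlapped, and with no strand setting. A further 18 count columns fit the labels of no sample and stayed out. The 1492 genes with no symbol held 0.125% to 0.45% of a library's counts and were kept.

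From the counts, the 17040 genes passing filterByExpr over the 6 groups were scaled by TMM and tested with edgeR 4.0.16 (R 4.3.3; glmQLFit with legacy off, quasi-likelihood F-test) in 1 model over 18 libraries, with 12 residual degrees of freedom and Benjamini-Hochberg adjustment over all genes. SE is the log2 fold change divided by the square root of F. Alternatives used DESeq2 1.42.0, limma 3.58.1, other scalings and filters, fewer libraries and a correction for gene length; the fits were tested on simulated data. Replicates were numbered in the order of the sample records, which pairs nothing. Within the PBS groups of both knockouts no library's counts were a copy of another's (chi-square at least 32.8 times its degrees of freedom). This cannot show whether libraries that share a code came from different mice.

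The members and the 28 gene lists were chosen with earlier results of these data known. Genes were named if called without overlap between groups, with a log2 fold change of 1 or more either way and a mean of 1 CPM or more (up to 12 a direction, filled to 10 by smallest unadjusted p, leaving out gene models, receptor segments and sex-linked transcripts). Also named were called genes within 10 Mb of a targeted gene, from each list as many as 4 called members, or else the 2 of smallest p, and the Fc gamma receptors. Igkv1-110, Igkj2, Igkj5, Ighj3, Ighj4 and Gm15987 were called outside this rule. Igkv1-117, Ighv1-81, Ighm, Syk, Inpp5d, Card9, Src, Il1b, Cx3cr1, Nr4a1, Xbp1, Prdm1, Sdc1 and Tnfrsf17 also lie outside it and were chosen after their values were seen. Python 3.11.15 and matplotlib 3.10.9 drew the figures.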

Additional observations from a re-analysis of the deposited data

How the results depend on the processing

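Against 15 genes called in PBS mice, DESeq2 called 110 (12 higher, 98 lower, all 15 among them), limma voom 8, the fit with libraries that share a code summed 5 and the fit without immunoglobulin, haemoglobin and mitochondrial genes 8. Of 2 fits added after seeing the data, the one with the length trend removed and without FcgRIIb-labelled replicate 2 called 7, and the one without replicate 3 of both groups 5. Leaving out 1 library at a time gave 5 to 17 calls: 6, 5 and 5 without Dectin-1 knockout replicates 1, 2 and 3, and 17, 8 and 7 without FcgRIIb-labelled replicates 1, 2 and 3. The remaining 7 alternatives gave 10 to 17 calls. The IVIg contrast called 20 genes, DESeq2 31, limma voom 32, no filter 34 and the legacy fit 9, with 9 to 25 when 1 library was left out. The difference between the contrasts called 0 genes, 4 by DESeq2, and 0 to 1 when 1 library was left out, the 1 being Retnlg without Dectin-1 knockout IVIg replicate 3. These fits use fewer samples or genes or another model, and the cause of each shift was not tested. Clec7a and Fcgr2b kept their direction and their side of the threshold in all 19 alternatives. The plasma cell median ran from -3.67 to -0.27. Genes under about 4.17 CPM cannot be read in the shallow replicate 2. No paired analysis was possible because the labels carry no replicate numbers that tie mice of the 2 genotypes.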
